A study of Homo sapiens and Mus musculus with 15 samples.

Results

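The tetraspanins CD9, CD81, CD82, CD151, CD63, CD37 and CD53 were followed by their transcripts in 15 RNA-seq libraries from 2 myeloma lines. The genes were taken by symbol, as 7 of the 23346 genes listed in each human table and 7 of the 23329 listed in each mouse table, where the same symbols stand in title case. They were chosen with measured values of these libraries already known, so their own levels and fold changes are a description and carry no test. A call named below for one of them, kept or lost, only says on which side of the threshold the fit put it. RPMI-8226, called 8226 below, is an established human plasma cell myeloma line, and 5TGM1 is a mouse myeloma line from a plasma cell tumour of C57Bl/KaLwRij mice. The 5 groups had 3 libraries each and were naive 5TGM1, bortezomib-resistant 5TGM1 kept in 20 nM bortezomib, naive 8226, bortezomib-resistant 8226 kept in 10 nM bortezomib and carfilzomib-resistant 8226 kept in 10 nM carfilzomib. Both drugs inhibit the proteasome. The resistant lines had been raised by months of culture in rising drug and had been without drug for 5 days when RNA was taken, and all cultures were under 1 month from thawing. Each resistant group is 1 derived line, so what came with deriving it cannot be told apart from resistance to its drug. Separate cultures are not named for the replicates in the labels. Each p-value below therefore judges a difference between groups against the spread of these libraries, and that spread may be technical.

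Tetraspanins are small proteins that cross the membrane 4 times and gather integrins, immunoglobulin-superfamily proteins and membrane enzymes into lateral complexes. CD9, CD81 and CD63 are the family members most used to recognise extracellular vesicles, CD63 is mainly a protein of late endosomes and lysosomes, and CD151 binds laminin-binding integrins. CD81 belongs to the B cell coreceptor, and CD37 and CD53 are largely restricted to leukocytes. CD82 is known as a suppressor of metastasis.

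The RefSeq promoter table used here (GRCh38.p14) was matched by symbol for CD9, CD82, CD53 and CD63. Its windows run from 250 bases before to 50 bases after an annotated start. Each of the 3 stretches printed here is the part of 1 window that precedes the first GENCODE v29 exon inside that window, on the + strand, with CpG dinucleotides in capitals. The CD9 and CD82 stretches lie downstream of the outermost annotated start of their gene, and the CD53 stretch lies upstream of it. They are shown because CD9 and CD53 had far lower transcript levels in bortezomib-resistant than in naive 8226 while CD82 had a higher one. The CD9 stretch is chr12:6200150-6200315, the CD82 stretch is chr11:44565413-44565590 and the CD53 stretch is chr1:110870960-110871187.

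CD9: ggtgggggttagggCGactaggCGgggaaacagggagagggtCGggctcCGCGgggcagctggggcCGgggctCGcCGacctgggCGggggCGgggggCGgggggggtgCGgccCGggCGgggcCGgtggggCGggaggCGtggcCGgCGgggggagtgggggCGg
CD82: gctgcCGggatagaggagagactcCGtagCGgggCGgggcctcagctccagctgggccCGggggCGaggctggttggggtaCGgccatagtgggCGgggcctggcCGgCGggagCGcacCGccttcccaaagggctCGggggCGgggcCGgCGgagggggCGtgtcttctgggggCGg
CD53: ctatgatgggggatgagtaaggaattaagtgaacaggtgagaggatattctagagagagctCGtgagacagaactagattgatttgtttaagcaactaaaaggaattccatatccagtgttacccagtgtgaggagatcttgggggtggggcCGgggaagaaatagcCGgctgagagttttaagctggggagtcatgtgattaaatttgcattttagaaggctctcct

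The whole 300-base window printed in part for CD9 held 32 CpGs, and that of CD82 held 33, whereas that of CD53 held 3 CpGs. The median of all 35116 windows was 14 CpGs, and 82.8%, 84.4% and 24.5% of windows had as many CpGs as CD9, CD82 and CD53 or fewer. The GC box GGGCGG, searched on both strands with overlaps allowed, occurred 6 times in the CD9 window, 4 times in the CD82 window and 0 times in the CD53 window. It occurred in 45.0% of all windows. CCAAT and TATAAA, searched in the same way and found in 34.6% and 11.5% of windows, were in none of the 3. The windows of one gene differed. The 4 of CD9 held 12, 32, 30 and 1 CpGs, the first of them, at the outermost start, with 0 GC boxes and 1 CCAAT and the third with 3 GC boxes, and the 2 of CD53 held 3 and 4 CpGs, the second with 1 GC box. Which start these cells used was not tested.

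Reads assigned to genes numbered from 31709636 to 58419576 per library in 8226 and from 49097494 to 72288680 in 5TGM1, and 3 counts corresponded to 0.0514 to 0.0946 and 0.0415 to 0.0611 CPM. CPM is a gene's count scaled to the library's reads on genes, here corrected by the trimmed mean of M-values. Plasma cell markers matched the labels: 10 of 10 were at 1 CPM or more in naive and in carfilzomib-resistant 8226, 9 of 10 in bortezomib-resistant 8226, where SLAMF7 was near 0, and 8 of 9 in both 5TGM1 groups, where Cd38 was near 0. Their summed level was 8621 to 9796 CPM in naive, 3885 to 4025 CPM in bortezomib-resistant and 5755 to 5961 CPM in carfilzomib-resistant 8226. The 9 B cell markers summed to 186 to 193, 21.6 to 22.7 and 74.9 to 79.4 CPM in the same order. Megakaryocyte, fibroblast and endothelial markers summed to under 2 CPM in every 8226 library, and PF4 and GP9 had 0 counts in all of them. T cell markers summed to 8.83 to 13.0 CPM, macrophage markers to 26.6 to 59.1 CPM and epithelial markers to 229 to 315 CPM. In 5TGM1 the B cell list summed to 129 to 156 CPM, and the macrophage list to 285 to 288 CPM in naive and 377 to 427 CPM in bortezomib-resistant libraries. The part of these shifts in the tetraspanin values was not tested.

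Differences were computed with edgeR's quasi-likelihood fit over all genes tested, and a gene was called when its Benjamini-Hochberg adjusted p was below 0.05. Calls were common in these lines. Of 13910 genes tested in 8226, 79.5% were called between bortezomib-resistant and naive libraries, 71.5% between carfilzomib-resistant and naive and 76.5% between the resistant lines, and in 5TGM1 67.3% of 11974 were called. In bortezomib-resistant against naive 8226, 2 of the 7 tetraspanins were called higher, against 38.1% of all genes, and 4 were called lower, against 41.4%. In carfilzomib-resistant against naive 8226, 2 were called higher, against 34.9%, and 5 lower, against 36.6%. Between the resistant lines, 3 were higher in carfilzomib-resistant cells, against 39.7%, and 4 were lower, against 36.8%. In 5TGM1, 1 of the 6 tested was called higher, against 34.1%, and 3 lower, against 33.2%. Mouse Cd63 had too few counts for the fit. Libraries lay wholly apart, without overlap, for 5 of 7 tetraspanins in bortezomib-resistant against naive 8226, against 79.7% of all genes, for 7 of 7 in carfilzomib-resistant against naive, against 73.1%, for 7 of 7 between the resistant lines, against 79.8%, and for 4 of the 6 tested in 5TGM1, against 69.6%. Nothing is read from these counts, since the genes were chosen on the same contrasts. Both resistant 8226 groups are set against the same 3 naive libraries, so their values stand side by side without a measure of likeness. RNA from whole cultures cannot tell fewer cells with a transcript from less transcript per cell.

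Exon length was the union of all exons of a gene in the GENCODE v29 basic annotation. Which isoforms these cells used was not tested. In naive 8226, the order of the tetraspanins by level per kilobase of exon was led by CD9 at 153 ± 14.8 CPM per kb (SD, n = 3). CD63 followed at 84.9 ± 10.4, CD151 at 39.4 ± 7.32, CD81 at 39.2 ± 4.51, CD53 at 25.1 ± 0.783, CD37 at 15.5 ± 0.347 and CD82 at 5.59 ± 0.641 CPM per kb. CD151 and CD81 lay within their spread of each other. In bortezomib-resistant 8226 the order per kb was CD63 at 95.7 ± 3.76, CD151 at 45.8 ± 4.52, CD82 at 14.6 ± 0.748, CD37 at 1.16 ± 0.173, CD9 at 0.349 ± 0.0973, CD53 at 0.225 ± 0.0461 and CD81 at 0.208 ± 0.0756 CPM per kb. CD53 and CD81 did not differ beyond their spread there, and the libraries of CD9 and CD81 overlapped. In carfilzomib-resistant 8226 CD37 came first at 50.2 ± 5.70, then CD53 at 43.0 ± 0.780, CD63 at 39.3 ± 1.25, CD151 at 24.2 ± 2.51, CD82 at 3.80 ± 0.224, CD9 at 1.35 ± 0.171 and CD81 at 0.0573 ± 0.0218 CPM per kb, with no overlap between neighbours. CD9 thus went from the first place in naive cells to the fifth in bortezomib-resistant and the sixth in carfilzomib-resistant cells. Of the leukocyte tetraspanins, CD53 held the fifth and CD37 the sixth place in naive cells. In carfilzomib-resistant cells CD37 held the first and CD53 the second. The latter order depends on the exon lengths. In CPM alone, carfilzomib-resistant cells had CD37 at 103 ± 11.7, CD63 at 90.7 ± 2.88 and CD53 at 67.8 ± 1.23. CD63 thus lay above CD53 there, and the libraries of CD37 and CD63 overlapped.

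**Figure D1:**
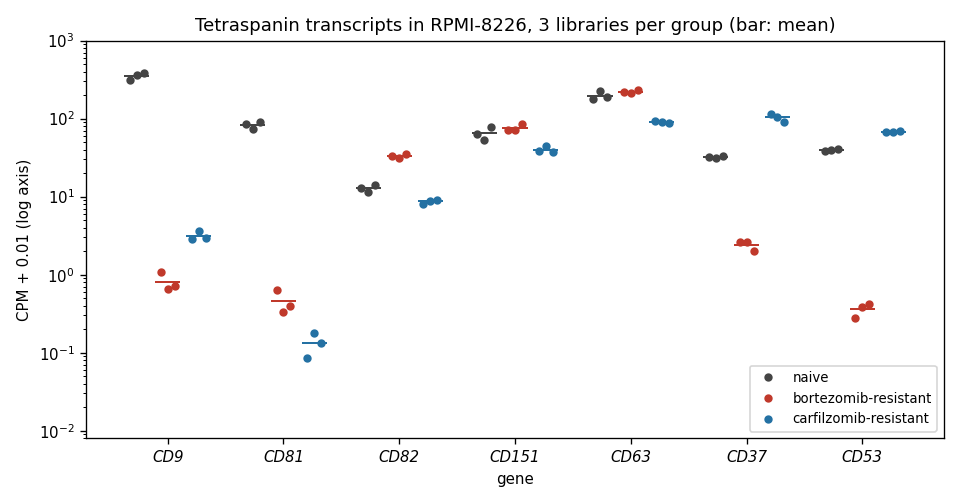
Levels of 7 tetraspanin transcripts in RPMI-8226, as CPM plus 0.01 on a log axis, with 1 point per library, 3 libraries per group and a bar at the mean. CD9 and CD81 are low in both resistant groups, CD37 and CD53 are low in the bortezomib-resistant group alone, and CD82, CD151 and CD63 stay within a few-fold of naive.

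CD9, a surface tetraspanin of adhesion and of vesicles, was at 316, 363 and 382 CPM in the naive 8226 libraries. The bortezomib-resistant libraries had 1.06, 0.642 and 0.712 CPM, which were 39, 22 and 26 counts. The carfilzomib-resistant ones had 2.83, 3.57 and 2.97 CPM, from 149, 148 and 171 counts. The 3 groups did not overlap, and every resistant library lay far below every naive one. The log2 fold change was -8.77 ± 0.132 (SE), or 435-fold lower, in bortezomib-resistant cells and -6.83 ± 0.109, or 114-fold lower, in carfilzomib-resistant cells. CD9 was 3.82-fold higher in carfilzomib-resistant than in bortezomib-resistant cells.

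CD81, the tetraspanin of the B cell coreceptor, had 86.5, 72.9 and 91.5 CPM in naive 8226. It had 0.626, 0.321 and 0.384 CPM in the bortezomib-resistant libraries and 0.0760, 0.169 and 0.122 CPM in the carfilzomib-resistant ones. The carfilzomib-resistant values rest on 4, 7 and 7 counts. Again the groups did not overlap, but here the carfilzomib-resistant libraries were the lowest, the reverse of the order seen for CD9. The log2 fold changes from naive were -7.54 ± 0.153 (186-fold lower) and -9.42 ± 0.173 (687-fold lower). From the summed counts, the ratio of naive to carfilzomib-resistant was 704, with a 95% interval of 445 to 1188 that covers counting error only. CD9 and CD81 were the 2 members at least 32-fold lower in both resistant 8226 lines. Among all tested genes, 8.27% were called and at least 32-fold lower in bortezomib-resistant cells and 4.22% in carfilzomib-resistant cells, and 432 genes were so in both.

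CD53, a leukocyte tetraspanin, stood at 38.3, 39.9 and 40.7 CPM in naive 8226 and at 66.7, 67.7 and 69.1 CPM in carfilzomib-resistant 8226. The bortezomib-resistant libraries had 0.272, 0.379 and 0.411 CPM, from 10, 13 and 15 counts. CD53 was therefore 111-fold lower than naive in one resistant line (log2 fold change -6.80 ± 0.109) and 1.71-fold higher in the other (0.78 ± 0.0575). Between the resistant lines it differed 190-fold, a log2 fold change of 7.57 ± 0.106.

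CD37, the other leukocyte tetraspanin, was at 31.7, 31.5 and 32.8 CPM in naive 8226. Its bortezomib-resistant libraries had 2.59, 2.60 and 1.97 CPM and its carfilzomib-resistant ones 113.8, 106 and 90.7 CPM. The direction from naive was the same as for CD53 in each line, with a log2 fold change of -3.75 ± 0.111 (13.4-fold lower) and of 1.69 ± 0.0803 (3.23-fold higher). CD37 was 43.4-fold higher in carfilzomib-resistant than in bortezomib-resistant cells. CD37 and CD53 were thus lower than naive in the bortezomib-resistant line and higher in the carfilzomib-resistant one.

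CD82 had 12.8, 11.3 and 14.3 CPM in naive 8226. It had 33.5, 31.6 and 35.0 CPM in bortezomib-resistant libraries and 8.11, 8.86 and 9.09 CPM in carfilzomib-resistant ones. No libraries of different groups overlapped. It was the member with the largest rise in bortezomib-resistant 8226, by a log2 fold change of 1.39 ± 0.0836 (2.61-fold), and it was 1.47-fold lower in carfilzomib-resistant cells (-0.56 ± 0.0884).

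CD151, the partner of laminin-binding integrins, had 64.1, 53.8 and 78.0 CPM in naive libraries and 71.8, 71.5 and 84.6 CPM in bortezomib-resistant ones. These overlapped, and the log2 fold change of 0.22 ± 0.129 had a 95% interval of -0.03 to 0.47. It was called without naive replicate 3, at 0.36, and with library size alone as the scaling, at 0.40. The carfilzomib-resistant libraries, at 38.0, 44.9 and 37.5 CPM, were lower than all naive ones by a log2 fold change of -0.70 ± 0.130.

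CD63, the lysosomal and vesicle member, was at 178, 223 and 187 CPM in naive and at 217, 215 and 231 CPM in bortezomib-resistant 8226. The ranges overlapped, and the log2 fold change of 0.17 ± 0.0707 was called in the fit over all 9 libraries but not with DESeq2, with the 2 groups alone, or without any one of naive replicates 1 and 3 and bortezomib-resistant replicates 1 and 3. Carfilzomib-resistant libraries had 93.7, 90.5 and 88.0 CPM, 2.16-fold below naive (log2 fold change -1.11 ± 0.0720) and without overlap. Of the 3 vesicle tetraspanins, CD9 and CD81 were thus more than 100-fold lower in both resistant 8226 lines, while CD63 had at least 88.0 CPM in every library.

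**Figure D2:**
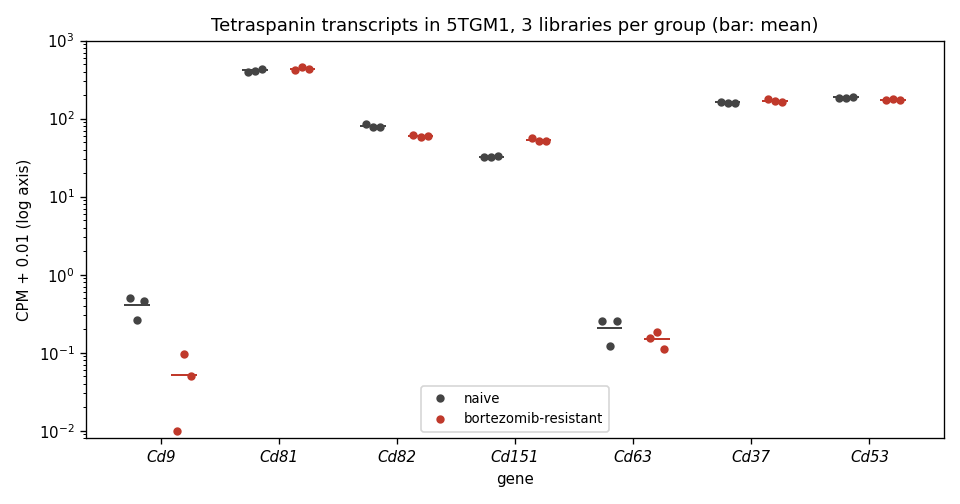
Levels of the 7 mouse tetraspanin transcripts in 5TGM1, as CPM plus 0.01 on a log axis, with 1 point per library, 3 libraries per group and a bar at the mean. Cd81, Cd53, Cd37, Cd82 and Cd151 lie above 30 CPM in all 6 libraries, while Cd9 and Cd63 lie below 0.5 CPM.

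The mouse line carried the same family at other levels. Cd81 was at 400, 409 and 434 CPM in naive and 417, 452 and 429 CPM in bortezomib-resistant 5TGM1. The groups overlapped, and the log2 fold change was 0.06 ± 0.0435 with a 95% interval of -0.02 to 0.15. Cd37 gave 165, 159 and 158.8 CPM in naive libraries against 177, 169 and 164 CPM in resistant ones, also overlapping, with a log2 fold change of 0.08 ± 0.0412. It was called only without naive replicate 1, at 0.10. Cd53 moved from 186, 186 and 189 CPM to 171, 178 and 174 CPM, a 1.07-fold difference (log2 fold change -0.10 ± 0.0380) whose call was lost without the low-count filter, with a replicate block, or without naive replicate 3, bortezomib-resistant replicate 1 or bortezomib-resistant replicate 3. These 3 transcripts, low in bortezomib-resistant 8226, therefore stayed within 10% of naive in bortezomib-resistant 5TGM1.

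Cd82 and Cd151 changed more in 5TGM1. Cd82 had 84.9, 78.1 and 79.0 CPM in naive libraries and 61.9, 57.8 and 59.9 CPM in resistant ones, a log2 fold change of -0.43 ± 0.0461. Cd151 went from 31.96, 32.3 and 32.9 CPM to 56.0, 51.8 and 51.1 CPM, by 0.71 ± 0.0471. Neither pair of groups overlapped. Cd9 was close to the limit of detection, with 24, 18 and 22 counts in naive and 0, 5 and 2 counts in resistant libraries. The ratio of the summed counts, naive to resistant, was 8.71 with a 95% counting interval of 3.99 to 22.5. Cd63 had 12, 8 and 12 counts in naive and 8, 10 and 5 counts in resistant libraries, with a ratio of 1.32 and an interval of 0.751 to 2.37. The counting left out reads with more than 1 place in the genome, so near-identical copies of a gene would lower its count. Whether this applies to mouse Cd63 was not tested.

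**Figure D3:**
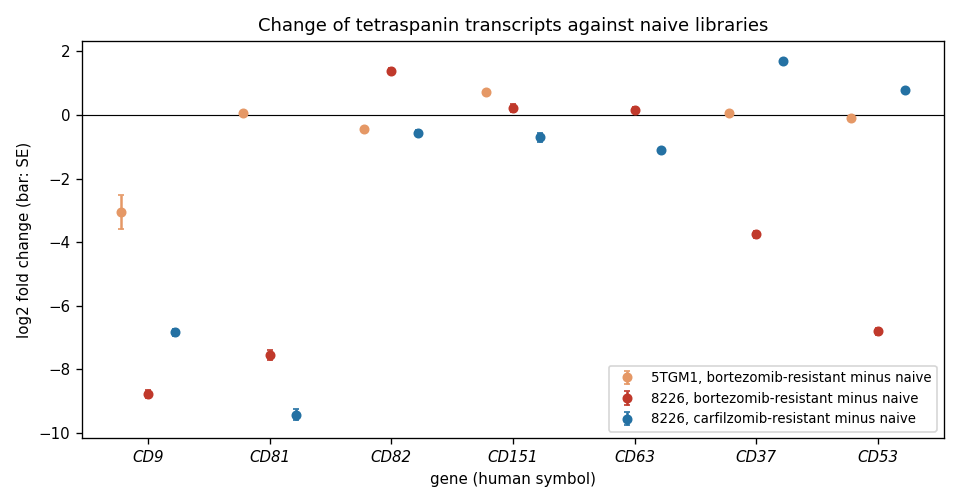
Log2 fold change against naive for each tetraspanin, with bars of 1 SE, in bortezomib-resistant 5TGM1 (orange), bortezomib-resistant 8226 (red) and carfilzomib-resistant 8226 (blue). Mouse Cd63 was not tested and has no point, and the changes of -6.80 to -9.42 in 8226 belong to CD9, CD81 and CD53.

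Set against the mouse line over genes with the same symbol, the bortezomib change in 8226 minus that in 5TGM1 was -7.58 ± 0.162 (SE, log2) for CD81, -6.68 ± 0.119 for CD53 and -3.80 ± 0.101 for CD37. It was -5.69 ± 1.23 for CD9, with the wide error of the few mouse counts, and its call was lost without bortezomib-resistant 5TGM1 replicate 2, at -4.62. For CD82 the difference was 1.84 ± 0.0982, since the transcript was higher in the resistant human line and lower in the resistant mouse line. For CD151 it was -0.47 ± 0.144, and its call was lost with library size alone, at -0.29. For CD63 it was 0.60 ± 0.454, not called. In all, 1 of 7 was called higher and 5 lower, where 31.3% and 33.4% of 11847 matched genes were called in these directions and 64.8% in either. Nothing is read from this count either, since the members were chosen with these values known.

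The rest of the family was read from a list of 26 other tetraspanins, of which 15 were tested in 8226 and 12 in 5TGM1. In bortezomib-resistant 8226, 4 rose, 10 fell and 1 was not called, with a median log2 fold change of -0.68 beside -0.03 over all tested genes. Of all tested genes, 38.1% rose and 41.4% fell there. TSPAN17 rose 3.22-fold, from 13.1 ± 1.53 to 42.0 ± 3.73 CPM (adjusted p = 6.81e-12, edgeR). TSPAN5, a partner of the protease ADAM10, rose from 9.28 ± 0.760 to 25.99 ± 1.18 CPM (adjusted p = 8.40e-12), and TSPAN4, which lies near CD151 on its chromosome, rose from 16.6 ± 3.95 to 30.4 ± 3.68 CPM (adjusted p = 0.000241). TSPAN9 fell from 23.7 ± 2.82 to 5.31 ± 0.0714 CPM (adjusted p = 9.52e-13).

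TSPAN14 and TSPAN33, which like TSPAN5, TSPAN15 and TSPAN17 are tetraspanins that carry ADAM10, were among the genes that fell. TSPAN14 went from 7.26 ± 0.693 to 0.345 ± 0.0862 CPM. TSPAN33 went from 1.27 ± 0.119 CPM to 0 counts in 3 libraries, at least 45.6-fold lower when the group is set at a floor of 3 counts over its libraries. TSPAN7, at 6.85 ± 0.651 CPM in naive cells, had 0 counts in every resistant 8226 library, which is at least 244-fold lower in bortezomib-resistant and at least 345-fold lower in carfilzomib-resistant cells. TSPAN12 fell from 5.22 ± 0.491 to 0.0182 ± 0.0158 CPM. TSPAN7, TSPAN12 and TSPAN14 were singled out after their values were seen.

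In carfilzomib-resistant 8226, 6 of the 15 rose, 8 fell and 1 was not called, with a median of -0.36 beside 0.00 over all genes. Of all genes, 34.9% rose and 36.6% fell there. TSPAN33 rose from 1.27 ± 0.119 to 18.4 ± 0.951 CPM (log2 fold change 3.85 ± 0.108, adjusted p = 7.98e-14, edgeR), opposite to its loss in bortezomib-resistant cells. TSPAN5 rose to 21.9 ± 0.664 CPM (adjusted p = 1.47e-10) and TSPAN9 fell to 5.88 ± 0.268 CPM (adjusted p = 2.04e-12). TSPAN31 fell from 23.3 ± 1.99 to 10.5 ± 1.02 CPM (adjusted p = 1.36e-09). TSPAN14, in contrast with the bortezomib-resistant line, was at 12.4 ± 0.945 CPM. Between the resistant lines, 6 were higher in carfilzomib-resistant cells, 6 lower and 3 not called, where 39.7% and 36.8% of all genes were higher and lower.

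In 5TGM1, 3 of 12 rose, 4 fell and 5 were not called, with a median of 0.02 beside 0.00 over all genes. Of all genes, 34.1% rose and 33.2% fell there. Tspan14 fell from 31.96 ± 0.962 to 14.2 ± 0.777 CPM (adjusted p = 3.03e-12, edgeR), Tspan4 fell from 32.3 ± 1.52 to 25.9 ± 1.06 CPM (adjusted p = 3.22e-05), Tspan3 rose from 71.4 ± 1.59 to 89.9 ± 1.80 CPM (adjusted p = 1.64e-06) and Tspan15 rose from 9.22 ± 0.269 to 11.5 ± 0.428 CPM (adjusted p = 0.000174). TSPAN14 fell with bortezomib resistance in both species. The fall was larger in 8226, by a log2 difference of -3.20 (adjusted p = 5.14e-12, edgeR interaction term).

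**Figure D4:**
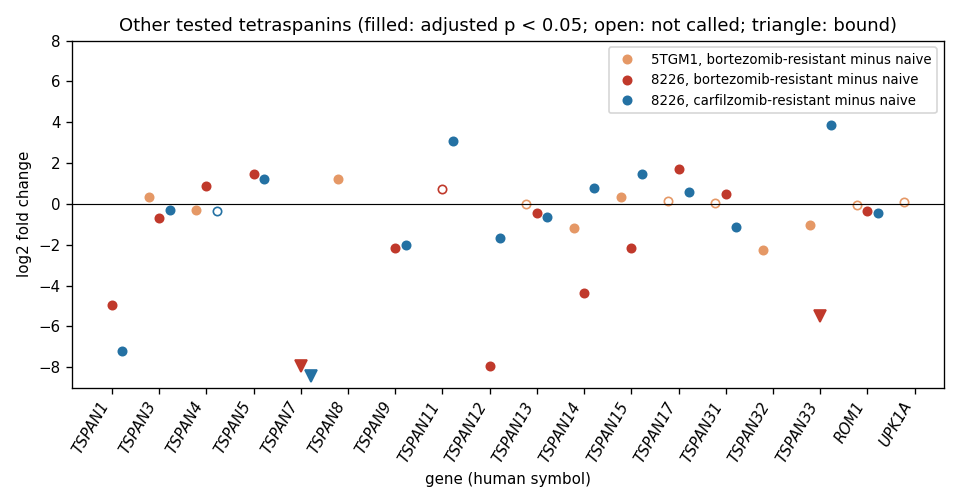
Log2 fold change against naive for the other tetraspanins tested, in bortezomib-resistant 5TGM1 (orange), bortezomib-resistant 8226 (red) and carfilzomib-resistant 8226 (blue). Filled points were called and open points were not, and triangles are lower bounds for TSPAN7 and TSPAN33 where a resistant group had 0 counts.

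Partners of tetraspanins at the membrane formed a list of 21 genes, with 19 tested in 8226. In bortezomib-resistant cells 7 rose, 9 fell and 3 were not called, and in carfilzomib-resistant cells the numbers were the same, with medians of -0.05 and -0.06. Of all genes, 38.1% rose and 41.4% fell in the former and 34.9% and 36.6% in the latter. CR2, which stands with CD81 in the B cell coreceptor, fell from 37.6 ± 0.730 CPM to 0.00973 ± 0.0168 CPM, or 1 count, in bortezomib-resistant cells (adjusted p = 8.91e-18, edgeR) and to 0.925 ± 0.111 CPM in carfilzomib-resistant cells (adjusted p = 5.26e-17). IFITM1, a small interferon-induced protein found with CD81, fell from 20.0 ± 0.877 to 2.62 ± 0.436 and 0.759 ± 0.148 CPM (adjusted p = 1.69e-13 and 3.16e-15). The coreceptor genes CD81 and CR2 were thus both low in the resistant human lines.

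The integrin partners went different ways. ITGA4, the alpha subunit of the fibronectin receptor VLA-4, fell from 37.4 ± 3.10 CPM to 1 count in 3 bortezomib-resistant libraries and to 3 counts in 3 carfilzomib-resistant ones (adjusted p = 5.31e-17 and 4.81e-17, edgeR). The ratios of summed counts were 4032, with a 95% counting interval of 723 to 159280, and 1895, with an interval of 648 to 9192. ITGB1, its beta partner, rose from 59.4 ± 6.15 to 107 ± 0.266 and 78.3 ± 4.27 CPM (adjusted p = 3.65e-09 and 5.03e-05). ITGA3, a partner of CD151, rose from 18.5 ± 1.31 to 22.0 ± 1.74 CPM in bortezomib-resistant cells (adjusted p = 0.00681) and fell to 10.2 ± 0.249 CPM in carfilzomib-resistant cells (adjusted p = 4.38e-08). ITGA6 was at 1.18 ± 0.154 CPM in naive cells, 1 count in 3 bortezomib-resistant libraries and 7.74 ± 0.404 CPM in carfilzomib-resistant cells. ITGB4 was at 3.07 ± 0.721, 0.460 ± 0.158 and 1.36 ± 0.00802 CPM in the same order, and ITGA7 at 1.37 ± 0.199, 1.63 ± 0.133 and 1.89 ± 0.307 CPM. CD44, the hyaluronan receptor, rose from 7.26 ± 0.355 to 35.1 ± 0.557 and 11.8 ± 0.585 CPM (adjusted p = 1.34e-14 and 2.56e-07). ADAM10 fell from 377 ± 17.9 to 134 ± 3.61 and 264 ± 13.8 CPM (adjusted p = 1.19e-13 and 2.20e-07), and IGSF8, the immunoglobulin-superfamily partner of CD9 and CD81, was at 21.2 ± 2.36, 34.1 ± 3.61 and 12.1 ± 0.415 CPM, called higher and lower in turn (adjusted p = 1.66e-06 and 4.83e-07). ITGB1, ITGA6, ITGB4, ITGA7, ADAM10 and IGSF8 in 8226 were singled out for their role after their values were seen. ITGA3 in bortezomib-resistant and CD44 in carfilzomib-resistant cells were given beside their change in the other line, also after their values were seen. The adjusted p-values of all these are a description.

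In 5TGM1, 7 of 15 tested partners rose, 2 fell and 6 were not called, with a median of 0.07, where 34.1% and 33.2% of all genes rose and fell. Igsf8 fell from 249 ± 6.88 to 159 ± 1.14 CPM (adjusted p = 1.21e-10, edgeR), Itga3 rose from 23.3 ± 1.27 to 36.9 ± 2.82 CPM (adjusted p = 2.30e-08), Pi4k2b from 16.4 ± 0.413 to 23.4 ± 2.10 CPM (adjusted p = 1.27e-06) and Adam17 from 139 ± 5.55 to 169 ± 4.08 CPM (adjusted p = 1.45e-05). Itga4, at 393 ± 30.7 and 377 ± 20.8 CPM, was not called (adjusted p = 0.345). Cd151 and Itga3 therefore both stood higher in bortezomib-resistant 5TGM1.

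Genes of extracellular vesicle formation, outside the tetraspanins, moved in both directions. Of 21 tested in 8226, 12 rose and 7 fell in bortezomib-resistant cells (median 0.35), and 8 rose and 9 fell in carfilzomib-resistant cells (median 0.00). Of all genes, 38.1% rose and 41.4% fell in the former and 34.9% and 36.6% in the latter. SMPD3, the neutral sphingomyelinase that makes ceramide for vesicle budding, fell from 33.3 ± 2.28 to 2.14 ± 0.185 and 0.792 ± 0.0684 CPM (adjusted p = 3.81e-16 and 5.48e-17, edgeR). SDCBP, the syntenin that links syndecans to ALIX, rose from 53.5 ± 2.02 to 156 ± 5.12 CPM in bortezomib-resistant cells (adjusted p = 5.14e-14) and was at 58.5 ± 2.08 CPM in carfilzomib-resistant cells (adjusted p = 0.0426), a call lost with DESeq2, unstranded counts, a replicate block, the 2 groups alone, or without any one of naive replicates 1 and 3 and carfilzomib-resistant replicates 2 and 3. The carfilzomib value of SDCBP was given beside its change in the other line, after its values were seen. CHMP4C, an ESCRT subunit, fell from 19.7 ± 0.491 to 4.25 ± 0.516 CPM in bortezomib-resistant cells (adjusted p = 2.68e-13). RAB27A, which docks vesicle-bearing endosomes at the plasma membrane, fell from 98.3 ± 9.94 to 65.4 ± 2.57 CPM in carfilzomib-resistant cells (adjusted p = 7.56e-07). Of 19 tested in 5TGM1, 8 rose, 5 fell and 6 were not called (median 0.07), where 34.1% and 33.2% of all genes rose and fell. Flot2 had the largest rise among those named, from 37.5 ± 1.72 to 61.4 ± 2.11 CPM (adjusted p = 5.29e-10).

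Membrane proteins of the late endosome and lysosome, the compartment of CD63, were read from a list with 16 genes tested in 8226. In bortezomib-resistant cells 8 rose, 5 fell and 3 were not called, with a median of 0.11, where 38.1% and 41.4% of all genes rose and fell. In carfilzomib-resistant cells 2 rose, 10 fell and 4 were not called, with a median of -0.41, where 34.9% and 36.6% of all genes rose and fell. NPC1, the lysosomal cholesterol transporter, rose in both, from 94.5 ± 1.83 to 521 ± 18.0 CPM (adjusted p = 1.24e-16, edgeR) and to 194 ± 10.1 CPM (adjusted p = 1.47e-11). SCARB2, also called LIMP-2, rose from 213 ± 9.39 to 319 ± 8.12 CPM in the former (adjusted p = 9.25e-09) and fell to 144 ± 1.31 CPM in the latter (adjusted p = 1.78e-08). LAMP1 and LAMP2 shared SCARB2's directions, at 217 ± 8.69, 274 ± 5.85 and 155 ± 7.10 CPM and at 231 ± 9.10, 299 ± 16.1 and 173 ± 6.21 CPM in naive, bortezomib-resistant and carfilzomib-resistant cells, and were singled out after their values were seen. In 5TGM1, 10 of 15 rose, 4 fell and 1 was not called, with a median of 0.27, where 34.1% and 33.2% of all genes rose and fell. Lamp1 rose from 806 ± 8.69 to 1268 ± 39.7 CPM (adjusted p = 1.74e-10) and Npc1 from 33.4 ± 2.46 to 54.9 ± 3.27 CPM (adjusted p = 5.93e-09). Ap3m1, of the AP-3 adaptor that sorts lysosomal membrane proteins, fell from 69.8 ± 2.98 to 36.2 ± 1.06 CPM (adjusted p = 8.09e-12).

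Between the resistant 8226 lines, 7 of 19 membrane partners were higher and 7 lower in carfilzomib-resistant cells, 7 of 21 vesicle genes were higher and 13 lower, and 4 of 16 late endosome and lysosome genes were higher and 10 lower. The medians were 0.00, -0.44 and -0.42 beside 0.02 over all genes. Of all genes, 39.7% were higher and 36.8% lower there.

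The genes most like each tetraspanin in 8226 were found by the root-mean-square difference of log2(CPM + 0.5), each gene centred on its mean over the 9 libraries, among 9765 genes that reached 10 CPM in a group. For CD9 they were PCP4, KCTD12 and CALCRL, with differences of 0.23, 0.26 and 0.43. CALCRL, a receptor subunit for calcitonin gene-related peptide and adrenomedullin, had group means of 230, 0.110 and 0.645 CPM in naive, bortezomib-resistant and carfilzomib-resistant cells. For CD81 they were MAGED1, ETV1 and GLUL, at 0.23, 0.27 and 0.27, and ETV1, a transcription factor of the ETS family, had means of 64.5, 0.0363 and 0.0185 CPM. For CD53 they were PEX5L, ZDHHC2 and SKAP2, at 0.17, 0.19 and 0.21. ZDHHC2, a palmitoyltransferase that is known to modify CD9 and CD151, had means of 32.8, 0.0552 and 53.5 CPM, low in the bortezomib-resistant line alone.

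For CD37 the nearest were STARD3NL, ALDH1L1 and INPP5D, at 0.11, 0.22 and 0.22, and INPP5D, the blood cell inositol phosphatase SHIP1, had means of 21.3, 1.60 and 95.3 CPM. For CD82 they were DNMT3B, TBC1D10A and PINK1, at 0.08, 0.10 and 0.11, with DNMT3B, a DNA methyltransferase, at 7.27, 18.9 and 5.11 CPM. For CD63 they were BCCIP, SHFM1 and MTERFD2, at 0.08, 0.09 and 0.09. CD151 differed by less than 2-fold over the groups and was not matched, and no mouse member met the rule. With a pseudocount of 2 in place of 0.5, 1 of the 3 genes was shared for each of CD9, CD81 and CD37, and 2 of 3 for each of CD53, CD82 and CD63. The points share 9 libraries in 3 groups, so likeness here is mostly likeness of 3 group means.

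The chromosomal neighbours of the tetraspanins, in the gene order of RefSeq GRCh38.p14, were examined in a window of 5 tested genes on each side, a width chosen after the values were seen. CD81 lies next to TSSC4, which was at 17.6 ± 3.70, 21.5 ± 2.72 and 19.6 ± 2.02 CPM in naive, bortezomib-resistant and carfilzomib-resistant cells and was called in neither comparison (adjusted p = 0.0797 and 0.339, edgeR). It was called higher in bortezomib-resistant cells with library size alone (0.48) and without naive replicate 3 (0.46) or bortezomib-resistant replicate 2 (0.39), and in carfilzomib-resistant cells without naive replicate 3 (0.32). On the other side of CD81 the nearest tested gene was the imprinted transcript H19, at 1.503 ± 0.0536 CPM in naive cells, 0 counts in bortezomib-resistant and 0.0404 ± 0.00707 CPM in carfilzomib-resistant cells. LSP1, further out, was at 454 ± 4.08, 299 ± 18.9 and 213 ± 6.10 CPM. Of CD81's 10 neighbours, 6 were lower in bortezomib-resistant cells, against 41.4% of all genes, and 8 in carfilzomib-resistant cells, against 36.6%.

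CD9's neighbour TNFRSF1A, a receptor for tumour necrosis factor, was at 37.7 ± 0.971, 19.7 ± 0.296 and 24.1 ± 0.515 CPM (adjusted p = 1.63e-10 and 2.44e-08, edgeR). On the other side the nearest tested gene, ANO2, was under 1 CPM in all groups, and NTF3, the next, fell from 12.1 ± 0.983 CPM to 0 counts and to 0.131 ± 0.00932 CPM (adjusted p = 2.46e-14 and 3.00e-14). Of CD9's 10 neighbours, 7 were lower in bortezomib-resistant cells and 6 in carfilzomib-resistant cells, against the same 41.4% and 36.6%. CD53 lies between KCNA3, a potassium channel, and LRIF1. KCNA3 fell from 20.4 ± 0.556 to 7.04 ± 0.303 and 3.79 ± 0.260 CPM (adjusted p = 8.61e-12 and 4.58e-14), whereas LRIF1, at 46.8 ± 2.34 CPM in naive, had 47.6 ± 1.07 CPM in bortezomib-resistant cells and was not called (adjusted p = 0.707), though it was called higher with library size alone (0.21). Around CD37, 0 of 10 neighbours were called lower in bortezomib-resistant cells, against 41.4% of all genes, and 6 higher, against 38.1%. CD37 itself was 13.4-fold lower there. In carfilzomib-resistant cells 1 of the 10 was called lower, against 36.6%, and 7 higher, against 34.9%, and CD37 was 3.23-fold higher. In bortezomib-resistant cells, 4 of 10 neighbours of CD53 and 7 of 10 of CD82 were lower, against 41.4% of all tested genes. For CD151 and CD63 it was 2 of 10 and 3 of 9. In carfilzomib-resistant cells, 3 of 10 neighbours of CD53 were lower and 4 higher, and 4 of 10 of CD82 were lower and 4 higher. For CD151, 2 of 10 were lower and 3 higher, and for CD63, 4 of 9 were lower and 4 higher. Of all tested genes, 36.6% were lower and 34.9% higher there.

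**Figure D5:**
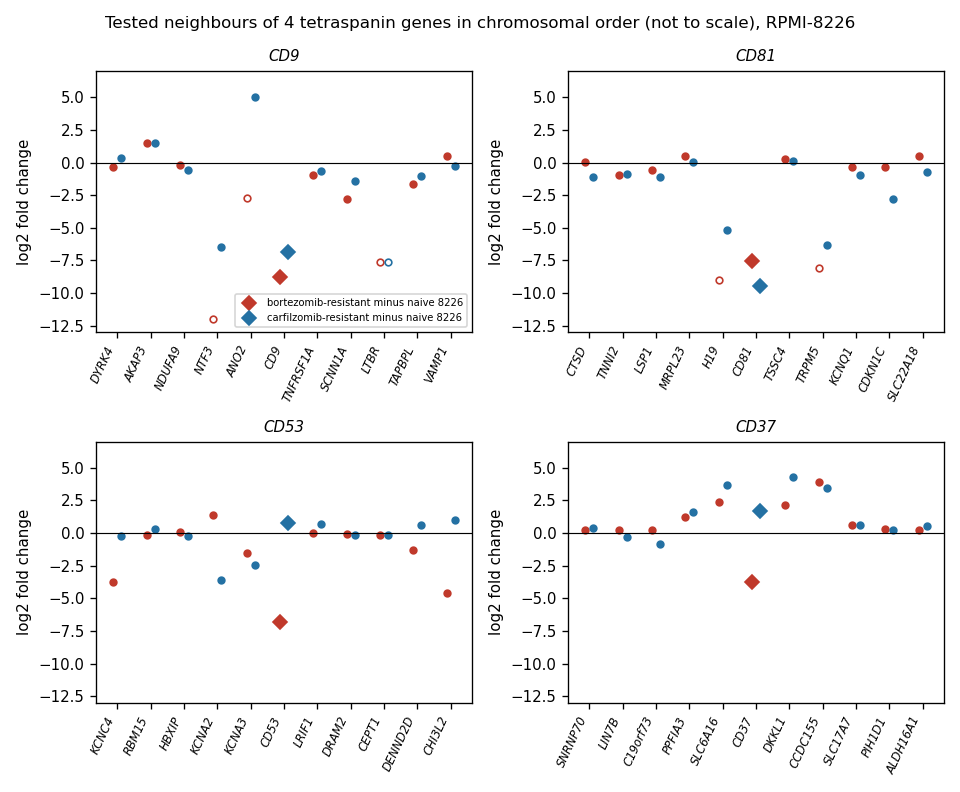
Log2 fold change against naive in RPMI-8226 for CD9, CD81, CD53 and CD37 (diamonds) and for up to 5 tested neighbours on each side (circles), in chromosomal order and not to scale. Red is bortezomib-resistant and blue carfilzomib-resistant, and open circles are fitted values of genes with 0 counts in the resistant group, whose size depends on the prior count.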

How the data were processed

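RNA of 15 libraries was sequenced, and the authors deposited a table of read counts per gene symbol for each, unnormalized, in the layout of STAR. The submitters' processing notes name STAR, with no version, and the builds mm10, hg19, GRCm38 and GRCh37; no source used here gives the annotation release. Column 4 (opposite strand) was used, because column 3 held 1.43% to 2.12% of stranded gene reads; the labels name no strand-marking kit. The first 4 rows are totals and stayed out of library sizes; reads mapping to several places, set aside by the counting, were 15.3% to 16.3% of reads in 5TGM1 and 8.95% to 10.9% in 8226, and reads outside genes 10.6% to 12.0% and 10.4% to 16.6%.

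Genes passing edgeR's filterByExpr (minimum count 10) were fitted with glmQLFit and glmQLFTest (edgeR 4.0.16, limma 3.58.1, R 4.3.3) after TMM scaling, over 6 libraries in 5TGM1 and all 9 in 8226, with Benjamini-Hochberg adjustment over all genes tested. The difference between lines was an interaction term over 11847 genes with the same symbol, ignoring case; a shared symbol was taken as the same gene. Intervals of 95% are 1.96 SE on each side; those of count ratios are exact and conditional, and cover counting error only. The fits were tested on simulated data. Alternatives were DESeq2 1.42.0, library size alone, no filter, unstranded counts, the 2 groups alone, a replicate block and each library left out. No 2 replicates were alike within sampling noise (chi-square per degree of freedom 3.98 to 25.8).

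The members, the gene lists and the tests were chosen with earlier results of these data known. Named beyond the members are up to 4 called genes of each list and comparison with the largest change and at least 10 CPM in the higher group, the 3 nearest patterns, and neighbours; others are said to be chosen after their values were seen. Exon lengths come from GENCODE v29 and promoters from RefSeq GRCh38.p14, used for names, lengths and order only beside the printed windows.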

Additional observations from a re-analysis of the deposited data

Results flagged for a closer look

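The change with bortezomib resistance differed between 8226 and 5TGM1 for the genes below. Each value is the log2 change in 8226 minus that in 5TGM1, with the adjusted p of edgeR's interaction term over 6 libraries per line, except CD82, whose difference carries no test because the gene was chosen on these values. Groups of 3 were not examined for a single distant library.

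CD82 differed by 1.84, from 1.39 in 8226 and -0.43 in 5TGM1, where all 3 resistant libraries were above the naive ones in the former and below them in the latter.

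Among the other tetraspanins, TSPAN14 differed by -3.20 (adjusted p = 5.14e-12), falling by 4.39 in 8226 and by 1.17 in 5TGM1. TSPAN3 differed by -0.99 (adjusted p = 5.43e-11) and TSPAN15 by -2.44 (adjusted p = 0.000371), both lower in resistant 8226 and higher in resistant 5TGM1. TSPAN4 differed by 1.21 (adjusted p = 2.97e-05), in the opposite sense. The 8226 side of TSPAN15 rests on summed counts of 31 in naive and 6 in bortezomib-resistant libraries. TSPAN17 differed by 1.56 (adjusted p = 6.53e-10), with 1.69 in 8226 and 0.15 in 5TGM1. TSPAN9 differed by -1.23 (adjusted p = 0.0467), on at most 14 counts in a mouse library, and its call was lost with library size alone (-1.04) and without any one of 7 libraries (from -0.87 to -1.24).

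Among membrane partners, ITGA4 differed by -11.52 (adjusted p = 6.74e-19), a fitted value that rests on 1 count in resistant 8226. CD44 differed by 2.25 (adjusted p = 9.38e-14) and IGSF8 by 1.36 (adjusted p = 1.82e-10), the latter higher in resistant 8226 and lower in resistant 5TGM1. ITGA3 differed by -0.39 (adjusted p = 0.00257), rising in both, and its call was lost with library size alone (-0.21). IFITM1 differed by -2.98 (adjusted p = 0.0283), on at most 3 counts in a mouse library, and its call was lost without 5TGM1 naive replicate 1 (-2.53), bortezomib-resistant replicate 1 (-2.62) or bortezomib-resistant replicate 2 (-2.65).

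Among vesicle genes, SDCBP differed by 1.51 (adjusted p = 5.20e-14) and STAM2 by 0.89 (adjusted p = 2.08e-09). CHMP4C differed by 1.24 (adjusted p = 0.0404), but with unstranded counts the difference was -0.65, and the call was lost with DESeq2 (1.29), with a replicate block (1.23) and without any one of 6 libraries (from 0.67 to 1.30). SMPD3 differed by -2.79 (adjusted p = 5.06e-06), HSPA8 by -0.75 (adjusted p = 4.88e-09), FLOT1 by -0.53 (adjusted p = 1.45e-05) and FLOT2 by -0.21 (adjusted p = 0.0316), the last losing its call with library size alone (-0.03) and without any one of 7 libraries (from -0.17 to -0.20). The mouse side of SMPD3 rests on summed counts of 54 in naive and 23 in bortezomib-resistant libraries. That of CHMP4C rests on 72 and 6 in the same order.

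Among late endosome and lysosome genes, NPC1 differed by 1.77 (adjusted p = 4.72e-14), AP3M1 by 0.96 (adjusted p = 1.44e-09), SCARB2 by 0.33 (adjusted p = 0.000285) and TMEM192 by 0.31 (adjusted p = 0.000818). CTNS differed by -0.83 (adjusted p = 7.06e-08) and LAMP1 by -0.29 (adjusted p = 0.000761), a call lost with library size alone (-0.11).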

How the results depend on the processing

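No count of called genes, for the 7 tetraspanins or the other 4 lists, moved by more than 1.5 times under any setting, 320 values in all. For other genes named with a test within a line, 1134 values under the alternatives kept their direction and their side of the threshold, 8 lost a call (all SDCBP in carfilzomib-resistant 8226) and 5 gained one (TSSC4 and LRIF1). For the line differences of the genes with a closer look above, 378 values did so, 29 lost a call (TSPAN9, CHMP4C, FLOT2, IFITM1, ITGA3 and LAMP1) and 1 reversed, CHMP4C at -0.65 with unstranded counts; the cause was not tested. Of the tetraspanins' own values, 421 did so, 13 lost a call, 3 gained one and 0 reversed. The lost and gained calls are Cd53 and Cd37 in 5TGM1, CD63 and CD151 in bortezomib-resistant 8226, and CD9 and CD151 in the difference between lines, given with their settings in the report. These genes were chosen on these values, so a call kept under the settings is a description and lends no support. Replicate numbers are shared between groups, but same-numbered libraries deviated together only weakly (correlations of -0.11 to 0.16). The labels do not say whether the numbers pair libraries, and weak correlations cannot decide it. With a replicate block, 3 tetraspanins were called in 5TGM1, 6 in bortezomib-resistant 8226 and 7 in carfilzomib-resistant 8226, and Cd53 (-0.10 in 5TGM1) lost its call. Leaving out 1 library at a time, between 3 and 5 tetraspanins were called in 5TGM1 and between 5 and 6 in bortezomib-resistant against naive 8226. Depth limits Cd9 and Cd63 in 5TGM1, CD81 in both resistant 8226 lines and CD53 in bortezomib-resistant 8226, all under 25 counts per library.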
